A study of Mus musculus with 8 samples.

Results

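The Hox genes encode homeodomain transcription factors that give cells of the embryo their position along the head to tail axis. In the mouse they lie in 4 clusters, HoxA to HoxD, and the 38 members described here were chosen by name as the listed protein-coding genes of these clusters, out of 21851 protein-coding genes of the nuclear chromosomes. They comprised 10 genes in HoxA, 10 in HoxB, 9 in HoxC and 9 in HoxD. The measurement was H3K27-me3 ChIP-seq in liver of male JMJD3-floxed C57BL/6 mice. Both groups carried the floxed alleles of JMJD3, an H3K27-me3 demethylase encoded by Kdm6b. At an age of 8 weeks the mice received AAV-TBG-Cre, in which the TBG promoter drives Cre in hepatocytes, or the control virus AAV-GFP, and 12 weeks later they were fasted for 16 h. Each group had 2 H3K27-me3 libraries and 2 input libraries. Chromatin came from the whole liver, so nuclei of other liver cells, which the TBG promoter does not target, contributed to both groups, and fewer cells with the mark and less of the mark per cell cannot be told apart. The degree of JMJD3 loss cannot be read from these data.

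Within each cluster, the order of the genes on the chromosome follows the order in which they are used along the body. Genes of paralogue groups 1 to 4 act in the hindbrain and neck (anterior), groups 5 to 8 in the trunk (central), and groups 9 to 13 in the lower trunk, limb and genital regions (posterior). Where Hox genes are silent, the Polycomb complex PRC2 places H3K27-me3 over whole clusters, and demethylases such as JMJD3 remove it. Most Hox genes are silent in adult hepatocytes.

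The data are 2 lists of enriched regions, one per virus, and each list pools both replicates. There is therefore no value per mouse and no test between the viruses, and all differences below are differences between 1 list and 1 list. The AAV-Cre list held 59267 regions over 2.71% of the genome, and the AAV-GFP list held 34586 over 0.548%. The narrowest AAV-Cre region was 300 bp and the narrowest AAV-GFP region 120 bp, and 88.6% and 46.8% of their regions had a q-value of 0.05 or lower. These features of the 2 peak calls move together with every comparison between lists, and their part in it was not tested. Read depth is unknown.

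Regions of H3K27-me3 covered most of the summed Hox clusters in both lists. The spans of the 4 clusters, measured between the outermost ends of their listed genes, sum to 485 kb. AAV-Cre regions covered 433 kb of them (89.3%), and AAV-GFP regions covered 267 kb (55%). In AAV-Cre the cover came in 75 regions with a median width of 3310 bp, against a median of 753 bp over the whole list. In AAV-GFP it came in 344 regions with a median width of 427 bp, against 231 bp over the list. The clusters were thus covered by few wide regions in AAV-Cre and by many narrow ones in AAV-GFP. The 3 AAV-GFP regions of 5 kb or wider in the clusters were 5.26% of the 57 regions of that width in the list.

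HoxA was the most completely covered cluster in both lists and HoxB the least. HoxA (chr6:52162417-52260880) was covered at 96.9% by 11 regions in AAV-Cre and at 75.9% by 69 regions in AAV-GFP. HoxB (chr11:96194316-96368256) was covered at 78.6% by 35 regions and at 39.8% by 122 regions. HoxC (chr15:102921103-103036852) was covered at 95.7% by 17 regions and at 53.8% by 86 regions. HoxD (chr2:74668310-74765142) was covered at 93% by 12 regions and at 62.5% by 67 regions. HoxC and HoxD exchanged places between the lists, and the order of HoxA and HoxB at the ends was the same.

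**Figure D1:**
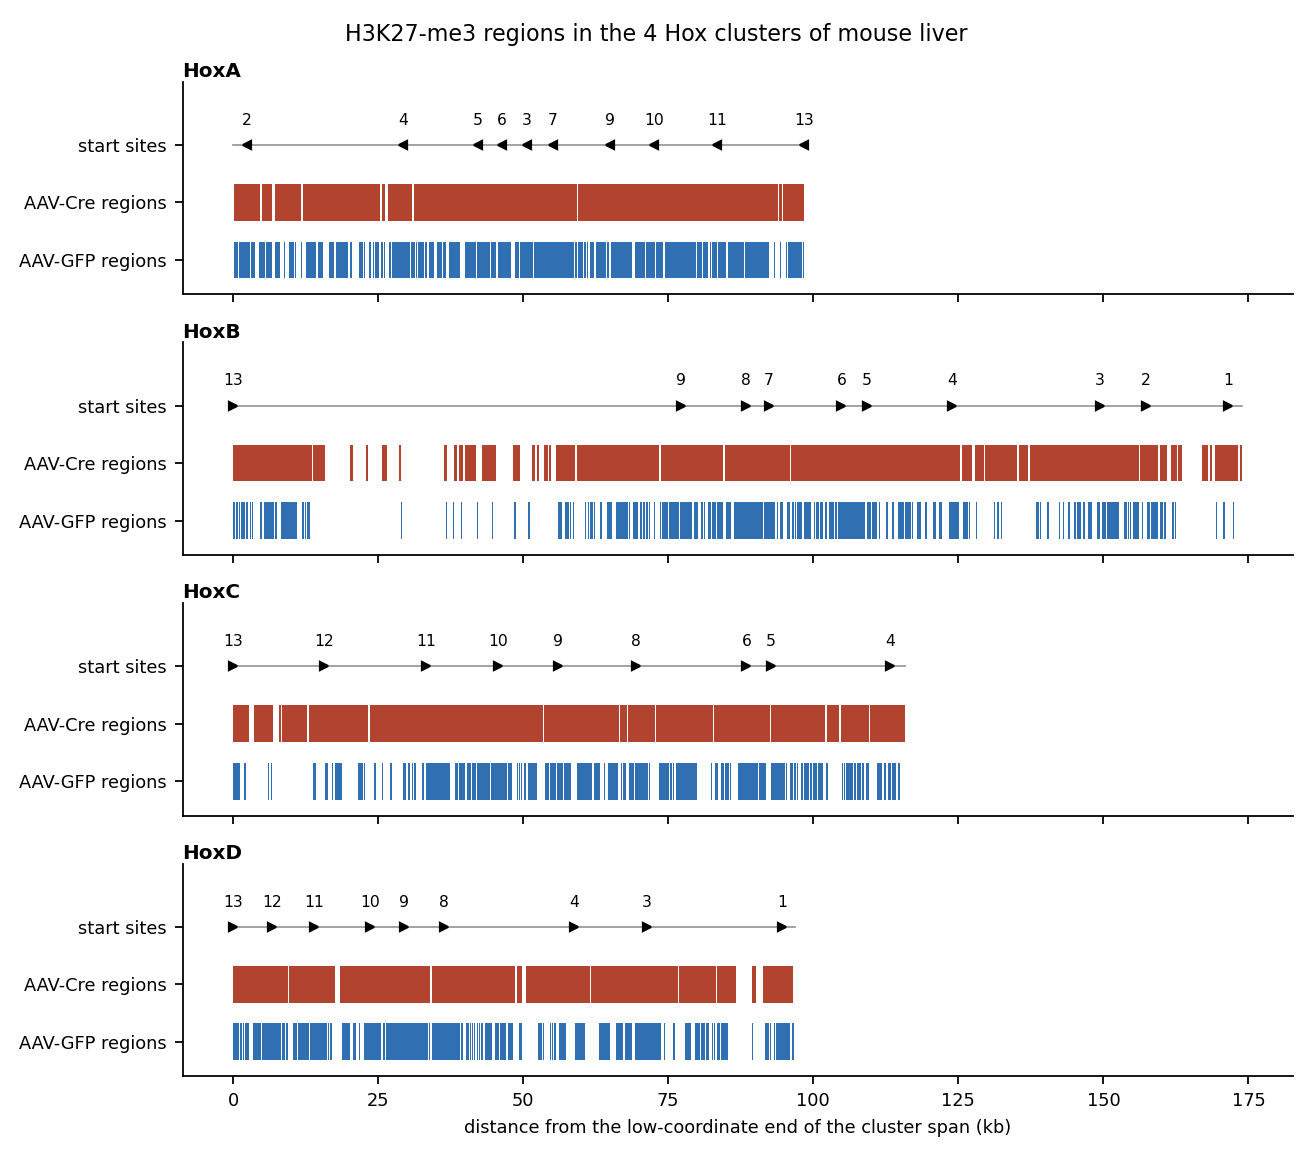
Regions of each list along the 4 Hox clusters, with the distance from the low-coordinate end of each span in kb on the horizontal axis. Triangles mark the start site and direction of each member, with its paralogue group as a number, and bars mark the 75 AAV-Cre regions and 344 AAV-GFP regions, clipped to the spans. AAV-Cre bars are nearly unbroken except between Hoxb13 and Hoxb9 and beside Hoxb1 and Hoxd1, and AAV-GFP bars lie almost wholly beneath them.

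Nearly all AAV-GFP cover of the clusters was also AAV-Cre cover. Of the Hox bases in AAV-GFP regions, 99.2% lay in AAV-Cre regions, against 93.3% over the genome. Of the Hox bases in AAV-Cre regions, 61.1% lay in AAV-GFP regions, against 18.9% over the genome. The Hox and genome shares start from unlike cover. AAV-Cre regions covered 89.3% of the cluster bases and 2.71% of the genome, and AAV-GFP regions 55% and 0.548%. The bases covered in AAV-Cre only summed to 169 kb, those covered in both lists to 265 kb, those covered in AAV-GFP only to 2.23 kb and those covered in neither to 49.7 kb. The share of AAV-Cre cover found in AAV-GFP was 77.3% in HoxA, 67.1% in HoxD, 55.9% in HoxC and 50% in HoxB. Of the 75 AAV-Cre regions, 58 had an AAV-GFP region over them, where 14361 of 59267 did in the whole list. The 17 without one had folds of 2.34 to 3.64 over the input. They lay between Hoxb13 and Hoxb9 (10 regions), between Hoxb9 and Hoxb1 (4) and between the start sites of Hoxc13 and Hoxc12 (3), and none held a start site or coding sequence of a member. Of the 344 AAV-GFP regions, 342 had an AAV-Cre region over them, where 29880 of 34586 did in the whole list. The 2 without one lay between Hoxb13 and Hoxb9 and were 158 and 223 bp wide.

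Joined into blocks across gaps of up to 5 kb, the clusters were among the longest H3K27-me3 domains of each list. In AAV-GFP the HoxA block was the longest of 11738 at 133 kb. The main HoxB block ranked 2 at 126 kb, the HoxD block ranked 3 at 121 kb, and the main HoxC block ranked 5 at 112 kb. In AAV-Cre the HoxC block ranked 9 of 20604 at 171 kb, the main HoxB block 11 at 156 kb, the HoxA block 15 at 152 kb and the HoxD block 25 at 127 kb. With this joining, the main block of each cluster was longer in AAV-Cre than in AAV-GFP, yet ranked lower, with 8 blocks from elsewhere in the genome above the longest Hox block and up to 276 kb long. The order of the lists depended on the joining, since HoxC ranked 2 in AAV-Cre against 6 in AAV-GFP when gaps of up to 2 kb were joined, and HoxB ranked 5 in both when gaps of up to 10 kb were joined. The HoxB cluster was broken in both lists between Hoxb13 and the other genes. In AAV-GFP, Hoxb1 and Hoxc13 also lay in blocks of their own, of 17 kb and 22.7 kb. Past the end genes, the AAV-Cre and AAV-GFP blocks ran 21.8 and 21.9 kb beyond the Hoxa13 start site, 40.9 and 12.6 kb beyond that of Hoxc4, and 6.01 and 4.44 kb beyond that of Hoxd1.

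**Figure D2:**
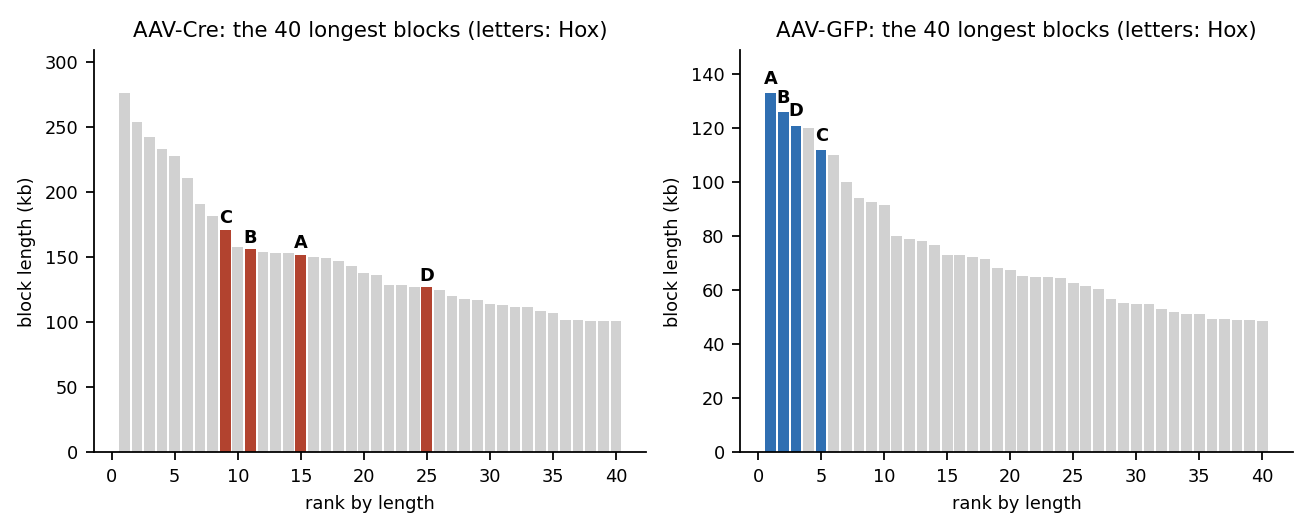
Length in kb of the 40 longest blocks of each list against their rank, with blocks over a Hox cluster in colour and marked by the letter of the cluster, and all others in grey. Hox blocks hold ranks 1, 2, 3 and 5 in AAV-GFP and ranks 9, 11, 15 and 25 in AAV-Cre.

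The largest uncovered stretches of the clusters lay between Hoxb13 and Hoxb9. Hoxb13 sits apart from the rest of HoxB, and the 74 kb between them were covered at 60.4% in AAV-Cre and 26.4% in AAV-GFP. From Hoxb9 to Hoxb1 the cover was 91.8% and 49%. The Hoxb13 gene itself was covered at 100% and 72%. The widest gap in AAV-Cre, 7420 bp at chr11:96223299-96230718, and the widest in AAV-GFP, 15695 bp at chr11:96207591-96223285, both lay in this interval. Outside HoxB, the widest AAV-Cre gap was 2640 bp between Hoxd3 and Hoxd1 at chr2:74755059-74757698. The widest AAV-Cre gap of HoxC was 1023 bp, across the end of the Hoxc13 gene record, and that of HoxA was 461 bp, within the long Hoxa3 gene record. The widest AAV-GFP gaps were 7013 bp in HoxC and 4242 bp in HoxD, overlapping those of AAV-Cre, and 1259 bp in HoxA.

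Intervals between neighbouring genes differed far more in AAV-GFP than in AAV-Cre. The 7.94 kb between Hoxc13 and Hoxc12 were covered at 92.6% in AAV-Cre and at 6.04% in AAV-GFP. The 15.8 kb between Hoxc12 and Hoxc11 were covered at 96.8% and 30.4%, and the 12.1 kb between Hoxb5 and Hoxb4 at 100% and 43.7%. Among the intervals between gene records, these were the largest where AAV-Cre cover was nearly complete and AAV-GFP cover was sparse. Stretches inside gene records were not compared in this way. At the other end, the 3.41 kb between Hoxd13 and Hoxd12 were covered at 100% and 93.7%, and the 1.25 kb between Hoxa10 and Hoxa11 at 100% in both lists. The 11.7 kb between Hoxb2 and Hoxb1 were sparse in both, at 56.5% and 16.2%.

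Gaps of 50 to 300 bp cut the AAV-Cre cover at 37 places, and at 27 of these AAV-GFP regions covered no base either. Since AAV-GFP regions covered 55% of all cluster bases, some stretches this short would lie outside them anyway, and the sharing of gaps was not tested. One of the 37, with 7.47% of its bases in AAV-GFP regions, lay between Hoxa7, which acts in the trunk, and Hoxa9, which acts further back. It divided the AAV-Cre cover of HoxA into a region of 28177 bp with the start sites of Hoxa3, Hoxa5, Hoxa6 and Hoxa7 and a region of 32879 bp with those of Hoxa9, Hoxa10 and Hoxa11. The gap was 174 bp wide in AAV-Cre and 176 bp in AAV-GFP, and the 161 bp left uncovered in both lists, at chr6:52221714-52221874, are shown because both peak calls broke there. Of these, 141 bp lay inside the upstream end of the Hoxa7 gene record. The minus strand of GRCm38 is given, on which HoxA is transcribed, with each CpG dinucleotide in capitals.

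Gap between Hoxa7 and Hoxa9: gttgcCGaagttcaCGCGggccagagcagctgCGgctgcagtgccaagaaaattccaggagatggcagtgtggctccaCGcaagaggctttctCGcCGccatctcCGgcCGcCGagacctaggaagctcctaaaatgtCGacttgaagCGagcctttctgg

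It held 12 CpG, or 7.45 per 100 bp, where Hox bases covered in neither list held 1.01 on average.

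The widest regions each took in several genes in AAV-Cre and 1 gene in AAV-GFP. In AAV-Cre they were the 32879 bp over Hoxa9 to Hoxa11, 29806 bp over Hoxc10 and Hoxc11, 29089 bp over Hoxb4 to Hoxb6 and 15180 bp over Hoxd12 and Hoxd13. In AAV-GFP they were 6919 bp over Hoxa7, 5348 bp over Hoxd9, 5033 bp over Hoxb8 and 3719 bp over Hoxc11. The AAV-GFP region over Hoxc11 had a −log10 p of 5.14 and ranked 10530 in its list by p-value, while the other 3 ranked between 159 and 226.

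All 38 Hox genes had an AAV-Cre region within 1 kb of the start site, where 22.2% of all protein-coding genes did. All 38 also had an AAV-GFP region within 1 kb, where 15.2% of all protein-coding genes did. The start site itself lay inside a region for 37 of 38 genes in AAV-Cre, against 17.6% of all genes, and for 29 of 38 in AAV-GFP, against 9.39% of all genes. The members are neighbours and share regions. In AAV-Cre the 37 start sites lay in 26 regions, up to 4 in the same region, and in AAV-GFP the 29 lay in 29 regions. Hoxc5, a trunk gene, was the member outside a region in both lists, at 27 bp from an AAV-Cre region and 73 bp from an AAV-GFP region. The other 8 start sites outside AAV-GFP regions were those of Hoxa2, Hoxa9, Hoxa11, Hoxb1, Hoxb2, Hoxb5, Hoxc12 and Hoxd4, from 3 bp (Hoxa11) to 540 bp (Hoxb1) away.

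Over the 5 kb centred on each start site, the median covered share was 100% in AAV-Cre, with a range of 89% (Hoxb1) to 100%, and 26 of the 38 genes were covered in full. In AAV-GFP the median was 80.1%, with a range of 12% (Hoxb1) to 100% (Hoxa7). The median over all protein-coding genes was 0 in each list. Shares above 90% were found for 36 Hox genes in AAV-Cre, against 4.04% of all genes, and for 9 in AAV-GFP, against 0.403% of all genes. The AAV-GFP share was lower than the AAV-Cre share for 37 genes and equal for Hoxa7. Coding exons were covered in full for all 38 genes in AAV-Cre and for 19 in AAV-GFP, where the lowest coding share was 8.64% for Hoxb1.

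The genes with the largest difference between lists were spread over 3 clusters. Hoxb1, which patterns a hindbrain segment, was covered at 89% in AAV-Cre and 12% in AAV-GFP. Hoxc12, a posterior gene, was covered at 98% and 36.2%. Hoxc4, at the anterior end of HoxC, was covered at 100% and 54.6%, Hoxd4 at 100% and 58.6%, and Hoxb2 at 91.7% and 51.3%. None of these 5 was a HoxA gene. Differences under 5 percentage points were found for Hoxa7, Hoxd9 (100% and 97.2%), Hoxd8 (95.6% and 91.8%), Hoxa13 (100% and 95.5%) and Hoxa4 (95.2% and 90.3%). These genes were almost wholly covered in the control list too.

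By position along the body axis, AAV-GFP cover was lowest over anterior genes. The median share of the 11 anterior genes was 60.3%, that of the 11 central genes 80.4% and that of the 16 posterior genes 85.3%. The AAV-Cre medians were 95.2%, 100% and 100%. The anterior range in AAV-GFP was wide, from 12% (Hoxb1) to 90.3% (Hoxa4), and overlapped the central range of 72.2% to 100% and the posterior range of 36.2% to 97.2%. By cluster, the AAV-GFP medians were 86.7% in HoxA, 73.7% in HoxB, 74.3% in HoxC and 87.8% in HoxD.

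Among the anterior genes, Hoxa3 and Hoxd3 were the other well covered ones in AAV-GFP, at 85.4% and 87.2%. Hoxa2 followed at 72.4%, Hoxb3 at 67.6%, Hoxd1 at 60.3% and Hoxb4 at 59.1%. Cover of the anterior end thus differed between clusters. The Hoxa3 value describes a start site far upstream of its coding exons, between Hoxa6 and Hoxa7, since this is its only start site among basic protein-coding transcripts.

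The central genes, which pattern the trunk, held the narrowest range in AAV-GFP. Hoxb8 (91.1%), Hoxb6 (89%), Hoxa5 (81.9%) and Hoxb7 (80.4%) followed Hoxa7 and Hoxd8, and Hoxb5 (79.8%), Hoxc8 (77.3%), Hoxc6 (76.2%), Hoxc5 (74.3%) and Hoxa6 (72.2%) came last. In HoxB the central genes were thus more fully covered than the anterior genes at its end.

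Of the posterior genes, those of HoxA and HoxD had AAV-GFP shares of 72% (Hoxd10) to 97.2% (Hoxd9), with Hoxd11 at 94.7%, Hoxd12 at 90.9%, Hoxa10 at 88.9%, Hoxa9 at 88%, Hoxd13 at 87.8% and Hoxa11 at 78.6%. Those of HoxB and HoxC had shares of 36.2% (Hoxc12) to 90.1% (Hoxc10), with Hoxb9 at 82.9%, Hoxc9 at 80.7%, Hoxc13 at 68.2%, Hoxc11 at 66.6% and Hoxb13 at 64.2%. Hoxb13, a marker of the prostate and the hind end of the embryo, had the most pieces, with 10 AAV-GFP regions in its 5 kb where AAV-Cre had 1.

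**Figure D3:**
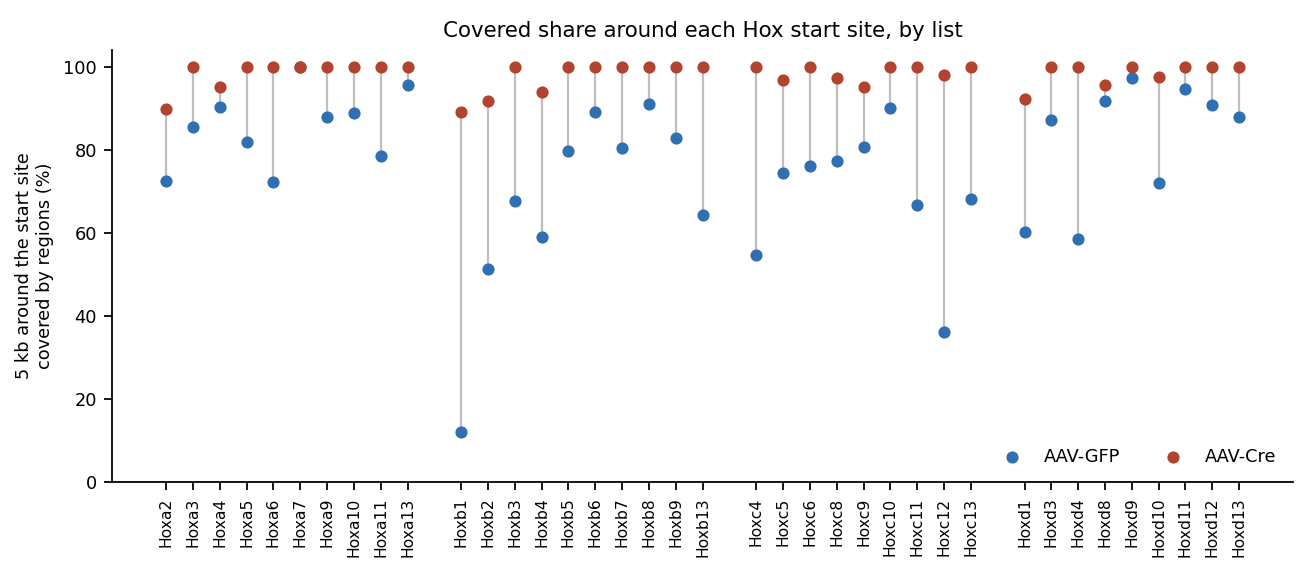
Share of the 5 kb around the start site covered by regions, in percent, for each of the 38 members by cluster and paralogue group, with AAV-Cre in red and AAV-GFP in blue. Each point is 1 gene in 1 pooled list, so there are no error bars. AAV-Cre points lie between 89% and 100%, and the AAV-GFP points of Hoxb1 and Hoxc12 lie lowest at 12% and 36.2%.

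Promoter sequences (RefSeq, GRCm38.p6, 250 bases before to 50 after the start) were at hand for 22 of the 38 genes, as 24 promoters. HoxB was present only with Hoxb1, Hoxb4 and Hoxb8, and HoxC only with Hoxc4. The rest came from HoxA and HoxD, the clusters with the highest AAV-GFP cover, so these promoters do not stand for all members. AAV-Cre regions covered all 24 in full, and AAV-GFP regions 18. These starts were not all the start sites used above, with offsets from them of −27626 bp for Hoxd3 and −5096 bp for Hoxd4. The median count of CpG dinucleotides was 14.5 in these Hox promoters and 7 in all 32851 promoters. Of these Hox promoters, 70.8% held 10 or more, against 43.5% of all. The 3 below, with each CpG in capitals, are examples from a promoter covered in both lists to one covered in AAV-Cre alone. They do not stand for a link between CpG count and cover. The Hoxd8 promoter held 6 CpG and was covered at 100% in AAV-GFP, and a Hoxa11 promoter with 15 CpG was covered at 34.3%. That of Hoxa13, a limb and genital gene (chr6:52260831-52261130, minus strand), held 45 CpG and was covered in full in both lists. That of Hoxa9 (chr6:52227321-52227620, minus strand) held 4 CpG and was covered in full in AAV-Cre and at 21% in AAV-GFP. That of Hoxb1 (chr11:96365508-96365807, plus strand) held 10 CpG and was covered in full in AAV-Cre and not at all in AAV-GFP.

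Hoxa13: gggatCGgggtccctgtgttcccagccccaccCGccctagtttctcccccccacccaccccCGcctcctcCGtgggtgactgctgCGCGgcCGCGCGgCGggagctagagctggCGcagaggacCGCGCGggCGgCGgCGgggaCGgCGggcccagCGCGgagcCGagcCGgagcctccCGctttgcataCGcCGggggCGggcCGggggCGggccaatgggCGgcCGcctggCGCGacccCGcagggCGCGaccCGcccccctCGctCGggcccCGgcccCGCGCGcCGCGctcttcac
Hoxa9: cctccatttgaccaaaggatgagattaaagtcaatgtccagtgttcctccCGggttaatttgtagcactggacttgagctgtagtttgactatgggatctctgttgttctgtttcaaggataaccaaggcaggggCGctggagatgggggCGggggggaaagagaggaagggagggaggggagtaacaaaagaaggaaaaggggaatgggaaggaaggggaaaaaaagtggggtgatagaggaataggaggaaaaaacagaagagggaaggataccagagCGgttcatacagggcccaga
Hoxb1: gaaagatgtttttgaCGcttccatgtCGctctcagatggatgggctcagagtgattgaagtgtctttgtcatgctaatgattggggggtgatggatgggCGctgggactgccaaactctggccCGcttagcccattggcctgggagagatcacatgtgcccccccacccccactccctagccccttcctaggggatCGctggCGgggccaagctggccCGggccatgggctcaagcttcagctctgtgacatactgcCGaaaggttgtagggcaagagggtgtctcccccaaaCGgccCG

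Around start sites, CpG content was above the median of all protein-coding genes for each Hox gene. In the 5 kb around the start it ranged from 2.18 per 100 bp at Hoxb1 to 5.76 at Hoxd11, with a median of 3.5, and the median over 21851 genes was 1.9. The lowest CpG content thus lay at the gene with the lowest AAV-GFP cover, but Hoxd3, next lowest at 2.22, was covered at 87.2%.

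Along the clusters, the bases that the lists covered differed in sequence. Hox bases covered in both lists held 3.39 CpG per 100 bp, those covered in AAV-Cre only 1.35, and those covered in neither 1.01. The 50 kb on each side of the clusters held 1.19, and all chromosomes 0.826. The share of bases marked as repeats in the reference ran the other way, at 11.2% in both lists, 21.1% in AAV-Cre only and 45.5% in neither, against 36.4% over all chromosomes. Reads map poorly to repeats, and the part of this in the uncovered stretches was not tested. Among clusters, HoxA had the highest CpG content (2.99 per 100 bp) and the lowest repeat share (13.4%), and HoxB the lowest CpG content (2.09) and the highest repeat share (24.6%). HoxD (2.8) and HoxC (2.15) lay between them in CpG content, and the 4 clusters stood in the same order by AAV-GFP cover.

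**Figure D4:**
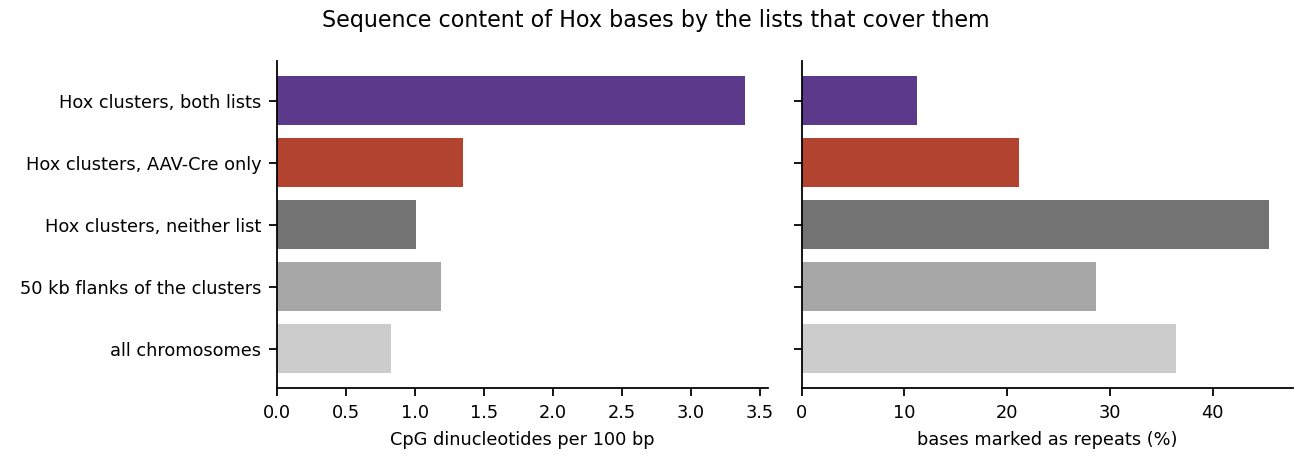
CpG dinucleotides per 100 bp (left) and percent of bases marked as repeats (right) for Hox bases covered in both lists, in AAV-Cre only or in neither, for the 50 kb beside the clusters and for all chromosomes. CpG content falls from 3.39 to 1.01 and repeat content rises from 11.2% to 45.5% from the bases covered in both lists to those covered in neither.

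The most significant region of each cluster by the caller's p-value lay at a gene of paralogue group 3, 4 or 5 in AAV-Cre. In HoxA it was the region over Hoxa4 (chr6:52189077-52193285), with a −log10 p of 110, rank 6 of the list and a fold of 16 over the input. In HoxD it was the region over Hoxd4 (chr2:74718719-74729814), with a −log10 p of 88.7 and rank 37. In HoxC it held coding sequence of Hoxc5 (chr15:103013842-103023158), with a −log10 p of 71.1 and rank 173. In HoxB it held the start site of Hoxb3 (chr11:96331596-96350482), with a −log10 p of 56.1 and rank 489. Hoxa4, Hoxd4 and Hoxb3 are anterior genes and Hoxc5 is central.

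In AAV-GFP the top regions were again over Hoxa4 (chr6:52189811-52192990, −log10 p of 51.3, rank 11) and over Hoxc5 (chr15:103013888-103016168, 28.2, rank 193). The Hoxa4 summits of the lists lay 391 and 507 bp from its start site. In HoxB and HoxD the top AAV-GFP regions were elsewhere, over Hoxb8 (27.4, rank 226) and Hoxd13 (34.5, rank 83). The Hoxd4 start site, inside the top AAV-Cre region of HoxD, was 159 bp from the nearest AAV-GFP region. Of the Hox regions, 54.7% were in the top 10% of the AAV-Cre list by p-value and 25.9% in that of the AAV-GFP list.

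The clusters also hold non-coding genes, among them microRNAs that repress Hox transcripts. The lists parted at the miR-10 genes and not at the miR-196 genes. AAV-GFP regions covered 55% of all cluster bases, so some genes this short would lie outside them, and a difference between the families was not tested. The 3 miR-196 genes, Mir196a-1 in HoxB, Mir196a-2 in HoxC and Mir196b in HoxA, lay wholly inside regions of both lists, as did Mir615 in an intron of Hoxc5. The miR-10 genes, Mir10a beside Hoxb4 and Mir10b beside Hoxd4, lay wholly inside AAV-Cre regions and outside AAV-GFP regions, with their 5p arms 420 bp and 373 bp from the nearest. The mature 5p arms (RefSeq, GRCm38.p6) are shown with the seed, bases 2 to 8, in capitals. Both miR-10 arms share a seed, and the miR-196 arms share another. For Mir615, the 3p arm is shown.

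miR-10a-5p, chr11:96317186-96317208: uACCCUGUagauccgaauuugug
miR-10b-5p, chr2:74726074-74726096: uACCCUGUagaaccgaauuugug
miR-196a-5p, chr11:96265187-96265208 and chr15:102973365-102973386: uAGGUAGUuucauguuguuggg
miR-196b-5p, chr6:52230129-52230150, minus strand: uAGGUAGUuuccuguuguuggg
miR-615-3p, chr15:103014969-103014990: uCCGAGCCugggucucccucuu

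Mir615 lay at the top of the HoxC mark. The summit of the most significant HoxC region was 13 bp beyond the end of the Mir615 gene in AAV-Cre and 83 bp beyond it in AAV-GFP. Of the long non-coding genes, Hotair, which is transcribed between Hoxc12 and Hoxc11 and whose product has been linked to PRC2, differed most, with 89% of its length covered in AAV-Cre and 11.6% in AAV-GFP. Hottip, beyond Hoxa13, was covered at 100% and 76.1%. The antisense genes Hoxaas3 (97.1% and 72.4%), Hoxb3os (96.4% and 63.9%), Hoxb5os (100% and 74.3%) and Hoxd3os1 (100% and 77.2%) were less covered in AAV-GFP. So were the antisense gene Hotairm1, beyond Hoxa2 (100% and 90.9%), and the processed transcripts Hoxa11os (100% and 82.9%) and Hoxaas2 (83.6% and 66.3%). Haglr, at the Hoxd1 end, was the least covered in AAV-Cre, at 73.2% and 38.5%.

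In AAV-Cre cover went on beyond every cluster end but that of Hoxd1, at 65.4% to 100% of the first 10 kb, while in AAV-GFP it ranged from 6.08% to 79.4%. In the 50 kb on each side, AAV-Cre regions covered 46.4% of bases and AAV-GFP regions 18%. The 10 kb beyond Hoxd13, on the side of Evx2, were covered at 98.7% and 77.8%, and the 10 kb beyond Hoxa13 at 100% and 79.4%. The 10 kb beyond Hoxd1 were covered at 18.1% and 6.08%, and those beyond Hoxb1 at 65.4% and 11.7%. Cover was also lower in AAV-GFP beyond Hoxb13 (87.4% and 27%), Hoxc13 (85.7% and 39.9%), Hoxc4 (88.8% and 24.6%) and Hoxa2 (99.2% and 75.8%). HoxD thus had 1 covered and 1 mostly bare side in each list. Beyond Hoxc4, cover in AAV-GFP dropped to 2.93% at 10 to 20 kb and was 50.9% at 20 to 30 kb.

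**Figure D5:**
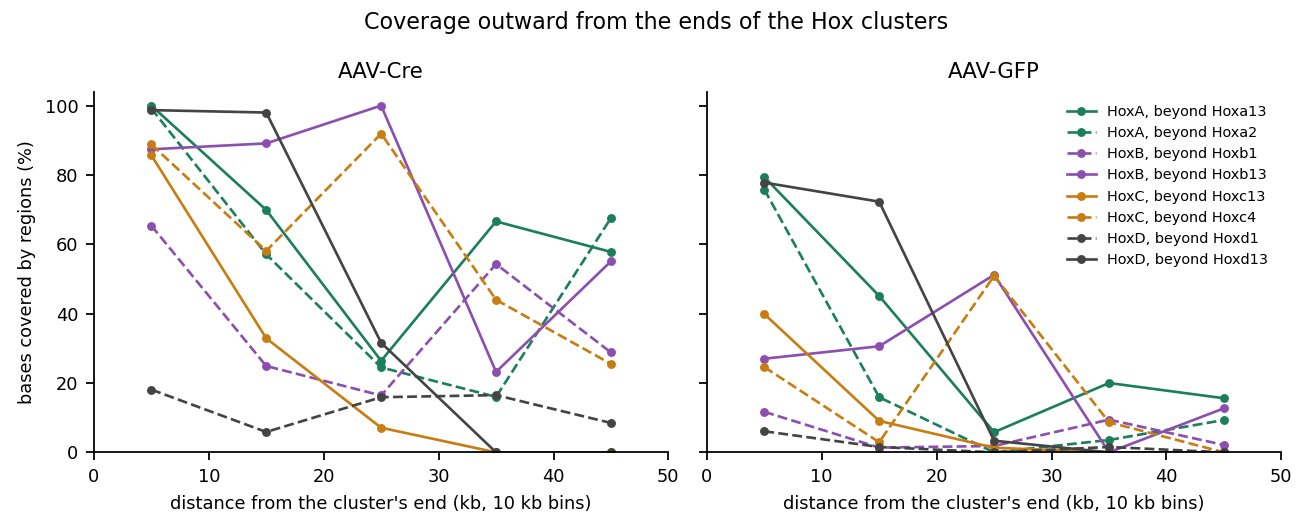
Percent of bases covered in 10 kb bins against the distance in kb from each end of the 4 clusters, for AAV-Cre (left) and AAV-GFP (right), with solid lines for the ends with a group 13 gene and dashed lines for the other ends. Beyond Hoxd13 cover stays at 98% in AAV-Cre and 72.3% in AAV-GFP from 10 to 20 kb, while beyond Hoxd1 it starts at 18.1% and 6.08%.

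Other homeobox genes of development were marked much like the Hox genes. All 83 genes of that list, which holds regulators such as those of the eye, limb and nervous system, had an AAV-Cre region within 1 kb of the start site and 80 had an AAV-GFP region (not Vsx1, Irx3 and Msx2). Their median covered share of 5 kb was 100% for AAV-Cre regions and 79% for AAV-GFP regions, beside 100% and 80.1% for Hox genes, and the medians of the lists of genes were thus close. Of the 6 Cdx and ParaHox genes, the closest relatives of Hox genes and their regulators, 6 and 5 had a region within 1 kb, with Cdx4 in AAV-Cre only. Evx1 and Evx2, homeobox genes next to HoxA and HoxD, were covered at 100% in AAV-Cre and at 61.8% and 83.4% in AAV-GFP.

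The partners of Hox proteins were marked in part. Of the 9 TALE homeodomain cofactors, which bind DNA together with Hox proteins, Meis2, Meis3 and Pbx4 had a region within 1 kb of the start site in both lists. Over all protein-coding genes, 22.2% had such a region in AAV-Cre and 15.2% in AAV-GFP. Meis1, Pbx2, Pbx3, Pknox1 and Pknox2 had none in either list, though the nearest regions to the Meis1 start site were 1322 bp away in AAV-Cre and 2487 bp in AAV-GFP. Of the 14 Polycomb and H3K27 demethylase genes, 4 (28.6%) had a region within 1 kb in AAV-Cre and 3 (21.4%) in AAV-GFP, near the shares over all genes. Bmi1, Cbx7 and Cbx8 had one in both lists, and Cbx2 in AAV-Cre only. The genes of the PRC2 proteins Ezh1, Ezh2, Eed, Suz12 and Jarid2 had no region within 1 kb in either list. Nor did those of the PRC1 proteins Ring1 and Rnf2 or of the demethylases Kdm6a and Kdm6b. The nearest regions to the Suz12 start site were 1395 bp away in AAV-Cre and 1071 bp away in AAV-GFP. Those nearest to the Kdm6b start site were 7386 bp away in AAV-Cre and 51345 bp away in AAV-GFP. None of 29 genes highly expressed in hepatocytes, Alb and Apoa1 among them, had a region within 1 kb in either list.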

How the data were processed

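H3K27-me3 ChIP-seq and input libraries of liver, 2 each per virus, were grouped by the sample labels. The authors used the AQUAS pipeline, with BWA 0.7.13, SAMtools 1.2 and Picard 1.126 per the labels, mm10 and MACS, with pooled inputs, and kept peaks that overlapped across replicates. Each deposited list pools both replicates. Per peak, the authors deposited a position, a fold (ratio) over input, −log10 p- and q-values, and a display score that was not used. Folds were not compared between lists, since they depend on depth.

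Broad domains called as narrow peaks are split into pieces, so covered length and regions joined across gaps of up to 5 kb (blocks) were also computed, with Python 3.11.15 and pandas 2.3.3 on GRCm38 and GENCODE M21. A gene's start site was that of its best APPRIS basic protein-coding transcript, then the one closest to the start codon. Spans ran between the outermost gene records of listed members, and coordinates are 1-based. Interval functions were tested on simulated regions (6000 checks). Named were all members, the genes of the lists that were bare or marked in 1 list only, most non-coding genes of the clusters, the genes nearest block edges, and the widest gaps, widest regions and most significant regions of each cluster. Members and lists were chosen with earlier results of these data known. Some genes of the lists are not reported here. The alternatives were stricter peak thresholds, equal peak numbers, peak width, joining, windows, start sites and spans. With 1 list per group, no test between groups was made. The authors' depths are not given in the sources used here.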

Additional observations from a re-analysis of the deposited data

How the results depend on the processing

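Values were recomputed under 82 alternatives, and 75 stayed within 1.5 times the value given. Some of the 75 could not have moved further. Wider windows or joining cannot raise a count of all 38 genes or a median of 100%, nor AAV-Cre cover of 433 of 485 kb by so much. The 7 that did not concern how regions are counted or joined, and follow from how they were built. Joining regions up to 1 kb apart left 16 AAV-Cre and 53 AAV-GFP regions in the clusters, and joining them up to 5 kb apart left 5 and 8, with 448 kb covered in AAV-GFP. The count of AAV-GFP regions was 214 with q-values of 0.01 or lower and 223 with widths of 300 bp or more. AAV-Cre cover was 452 kb and AAV-GFP cover 359 kb with joining up to 1 kb, and AAV-Cre cover was 478 kb with joining up to 5 kb, which counts nearly the whole spans as covered. Cover in AAV-Cre was 425 kb when its list was cut to its 34586 most significant peaks, as many as AAV-GFP has. The ranks of the Hox blocks ran from 2 to 12 in AAV-Cre and 1 to 6 in AAV-GFP with joining up to 2 kb, and from 5 to 57 and 1 to 9 with joining up to 10 kb. HoxC ranked higher in AAV-Cre (2) than in AAV-GFP (6) with joining up to 2 kb, unlike with 5 kb. No paired analysis was possible because each list pools both replicates of its group, and leaving out a replicate could not be run for the same reason.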
